A study of Mus musculus with 6 samples.

Results

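The heat shock chaperones described here are 10 genes, chosen by gene symbol from the 24421 genes of the table: Hspa1a, Hspa1b, Hspa8, Hsph1, Hsp90aa1, Hsp90ab1, Dnajb1, Bag3, Hspd1 and Hspe1. All 10 had a row, and all 10 had a mean of at least 10 normalized counts over the 6 libraries, the minimum for a test, which 13028 genes met. A normalized count is the number of reads on a gene divided by a size factor of its library. The libraries were made from mCherry-positive astrocytes sorted from the cortex of CD51-Flp mice at postnatal day 21. All animals, the saline controls included, carried the CD51-Flp transgene and had received AAV-GFAP-FSF-hM3D-mCherry after birth, a virus that makes the Gq-coupled designer receptor hM3D and the red marker mCherry from the GFAP promoter once Flp has acted. The CNO group (n = 3, replicates 1 to 3) was given clozapine-N-oxide, the ligand of hM3D, and the saline group (n = 3, replicates 3 to 5) was given saline, in both cases 2 times per day from postnatal day 7 to 21. No group had CNO without the receptor, so effects of CNO and of receptor activation cannot be told apart. Nothing in the labels ties a library to an animal of its own, so p-values cover the spread among libraries, which may be technical.

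Heat shock proteins are chaperones that bind unfolded or partly folded proteins. HSP70 proteins work in an ATP-driven cycle that J-domain proteins start and nucleotide exchange factors such as HSP110 and BAG proteins end, and HSP90 takes over clients at a later stage of folding. In mitochondria, HSP60 and its lid HSP10 form a folding chamber. Under stress the factor HSF1 binds heat shock elements, inverted repeats of GAA, and raises transcription of the inducible members, while other members are made at a high level at all times. In brain tissue these inducible transcripts are also known to respond to the warming and dissociation that precede cell sorting.

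The promoters of the pairs compared below are shown first, because some members have overlapping or near-identical promoter windows. Promoter sequence was available for 7 of the 10 members (RefSeq, GRCm38.p6), from 250 bases before to 50 after a start site. Hspd1 and Hspe1, which encode HSP60 and HSP10, lie head to head on chromosome 1 (Hspd1 at 55077835 to 55088243 on the minus strand, Hspe1 at 55088132 to 55091307 on the plus strand, GENCODE mouse release 21 on GRCm38). The window of Hspe1, chr1:55087898-55088197, plus strand, overlaps that of the Hspd1 start site at 55087932 in 285 of its 300 bases, and these start sites lie 216 bases apart. Hspd1 has a second start site at 55088243, the end of its annotated gene, whose window shares 4 bases with that of Hspe1 and holds no element. Capitals mark heat shock elements.
Hspe1, 300 bases: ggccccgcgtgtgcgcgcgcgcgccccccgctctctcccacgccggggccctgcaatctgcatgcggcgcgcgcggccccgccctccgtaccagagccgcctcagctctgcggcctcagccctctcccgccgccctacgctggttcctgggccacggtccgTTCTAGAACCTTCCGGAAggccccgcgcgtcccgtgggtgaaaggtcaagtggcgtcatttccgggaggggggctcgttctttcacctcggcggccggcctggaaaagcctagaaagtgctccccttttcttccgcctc
The run in capitals, chr1:55088059-55088076, holds 4 alternating units and lies 89 to 72 bases before the start site of Hspe1 and 144 to 127 bases before the Hspd1 start site at 55087932. Seen from the Hspd1 start site at 55088243 it lies downstream, within the gene. Further stretches of 60 bases around elements follow, each 5′ to 3′ on the strand of its gene.
Hspa1a, chr17:34972227-34972286, minus strand: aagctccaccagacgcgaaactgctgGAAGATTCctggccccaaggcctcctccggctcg
Hsph1, chr5:149636266-149636325, minus strand: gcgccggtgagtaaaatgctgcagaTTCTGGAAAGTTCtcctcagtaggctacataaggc
Bag3, chr7:128523573-128523632, plus strand: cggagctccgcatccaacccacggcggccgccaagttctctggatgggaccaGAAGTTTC
The window of Hspa1b is identical to that of Hspa1a at 296 of 300 positions, and its 60-base stretch, chr17:34959309-34959368 on the minus strand, is the same. The elements sought were GAANNTTC and TTCNNGAA, each its own reverse complement, alone (2 units) or overlapping (3 units or more). A 2-unit element was found in at least 1 window of 6 of the 7 members, against 16.97% of the 27025 genes with windows of the same length. The Bag3 element lay 42 to 49 bases after the start site. A 3-unit element was found in 3 members, Hspd1, Hspe1 and Hsph1 (in Hsph1 after the start site), against 0.662% of genes. Hspd1 and Hspe1 were matched on the same bases, and Hspa1a and Hspa1b on identical stretches, so these counts are not of independent matches. Dnajb1 held no element in its windows. These matches describe letters and not binding.

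Libraries differed in ways that bear on every value below. CNO 1 was the shallowest, with 3908076 reads against 12010901 to 19224186 elsewhere, so that a single read there made 4.23 normalized counts (0.503 to 0.970 elsewhere). Reads were found on 8618 to 12820 genes in the CNO libraries and on 14141 to 14491 in saline. The astrocyte markers (all 10 in the table had reads in both groups) summed to 175143 to 519344 normalized counts in CNO and 180385 to 267134 in saline. The 10 oligodendrocyte markers summed to 1837552 to 3478680 in CNO and 523979 to 748480 in saline, with no overlap and more than the astrocyte markers in every library. Microglia and macrophage markers summed to 77189 to 197834 and 99284 to 120050. Values for the members therefore cannot be assigned to astrocytes alone, and in sorted bulk samples fewer cells of a type cannot be told from less RNA per cell. Itgav, which encodes CD51, stood at 3709.8 to 4378.1 in CNO and 3924.5 to 5338.2 in saline. Xist was at 21466.4 or more in CNO 2, CNO 3 and saline 4, and Y-linked Ddx3y at 1451.8 or more in CNO 1, saline 3 and saline 5, so sex-linked transcripts were uneven within both groups. Saline 4 held both, with Ddx3y at 212.9 against 6.66 and 1.94 in CNO 2 and CNO 3. Xist was also at 216.0 in saline 3 and 885.3 in saline 5, against 25.4 in CNO 1.

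None of the 10 members passed the limma test of CNO against saline at an adjusted p of 0.05, where 2 of 13028 genes did so (0.0154%), the myelin genes Mbp and Mobp. At an unadjusted p under 0.05 there was 1 member, Hsp90ab1, and 1241 genes in all, and edgeR and limma-voom also called 0 members. DESeq2 called 0 of the 9 members to which it gave an adjusted p, with none given for Bag3. Log2 fold changes were above 0 for 6 members and below 0 for 4, with a median of 0.26, against a median of -0.89 over all tested genes, of which 31.7% were above 0. Among the 280 tested genes with a mean of at least 5000 normalized counts, where Hspa8, Hsp90aa1 and Hsp90ab1 fall, the median was 0.55. Among the 5230 genes with a mean of 200 to 1500 it was -0.36. Signs depended on scaling: against the total reads of each library 9 members were below 0 and only Hsp90ab1 above it.

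**Figure D1:**
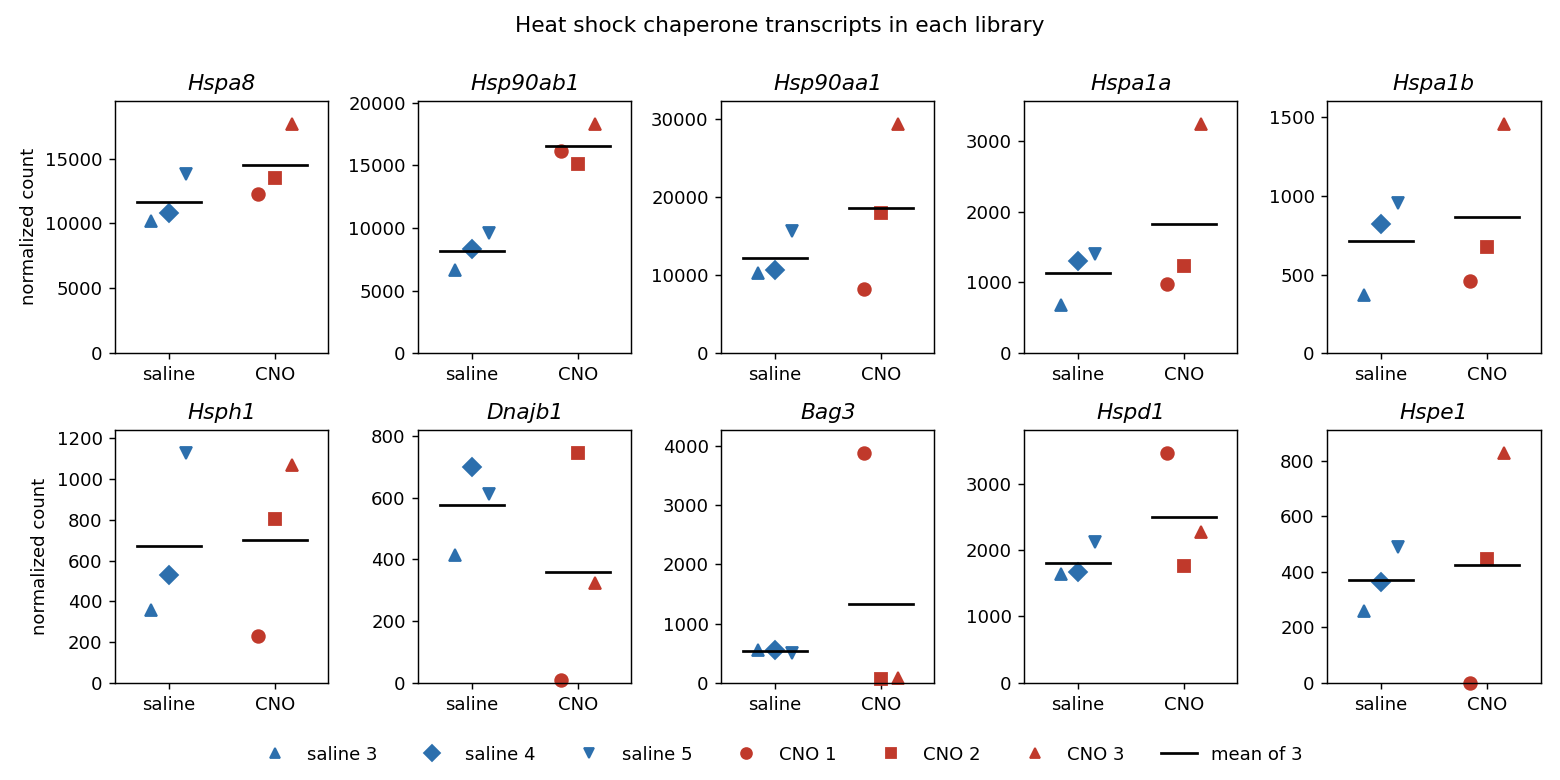
Normalized count (linear axes from 0) of each member in the 3 saline and 3 CNO libraries; each symbol is 1 library and each line the mean of 3. Hsp90ab1 is the member whose groups do not overlap, and CNO 1 stands far from the other libraries in Bag3, Dnajb1 and Hspe1.

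The most abundant members were the constitutive chaperones and Hsp90aa1. Per kilobase of the longest coding transcript, the saline means were 4857.6 normalized counts for Hspa8, 3734.1 for Hsp90aa1 and 3256.8 for Hsp90ab1, and at most 747.7 for any other member. In CNO they were 6058.7, 5658.4 and 6562.3 in the same order. These 3 genes held 80.3% to 89.1% of the members' reads in every library.

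Hsp90ab1 encodes the constitutive HSP90 of the cytosol (chromosome 17, 45567775 to 45573271). It stood at 16122, 15138.1 and 18351.1 normalized counts in CNO 1, 2 and 3, against 6668.9, 8361.3 and 9591.4 in saline 3, 4 and 5. Every CNO library was above every saline library, and the means were 16537.1 ± 1646.2 and 8207.2 ± 1467.3 (SD, n = 3 each), a ratio of 2.01. Such a separation upward was found in 1 of the 10 members and in 4.57% of all tested genes, but in 29.6% of genes with a mean of at least 5000. The log2 fold change was 1.02 ± 0.31 (SE, 95% interval 0.34 to 1.71, limma adjusted p = 0.488, 0.150 to 0.914 over the alternatives), and 1.04 ± 0.36 without CNO 1. In RPM, reads scaled to the library total, the groups overlapped, with 976.2, 1064.3 and 1106 in CNO and 676.5, 869.7 and 1000.3 in saline, a ratio of means of 1.24. The sum of oligodendrocyte markers was also higher in every CNO library, and its part in the Hsp90ab1 values was not tested.

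Hspa8 encodes the constitutive HSP70, HSC70 (chromosome 9, 40800984 to 40810087). It stood at 12306, 13506.7 and 17701.2 normalized counts in CNO 1, 2 and 3, against 10229.6, 10834.6 and 13823.5 in saline 3, 4 and 5. The groups overlapped, since saline 5 lay above CNO 1 and CNO 2. Its log2 fold change was 0.31 ± 0.31 (95% interval -0.37 to 1.0, limma adjusted p = 0.712). Its sign turned with total-read scaling (-0.39) and quantile scaling (-0.42).

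Hsp90aa1, the stress-inducible HSP90 (chromosome 12, 110690605 to 110702728), varied more. It stood at 8249, 18009.6 and 29436.9 in CNO 1, 2 and 3, against 10345.8, 10721.7 and 15687.1 in saline 3, 4 and 5. CNO 1 was the lowest of the 6 libraries and CNO 2 and CNO 3 the highest, so the CNO libraries lay on both sides of saline. The test gave a log2 fold change of 0.44 ± 0.44 (limma adjusted p = 0.711), and 0.94 ± 0.37 without CNO 1 (adjusted p = 0.385). It was -0.42 with quantile scaling and -0.26 with total-read scaling.

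Hspa1a and Hspa1b, the inducible HSP70 genes, are near copies on chromosome 17 (34969190 to 34972156 and 34956436 to 34959238), identical at 99.2% over a stretch of 2201 transcript bases, so how reads were divided between them is uncertain. Hspa1a stood at 984.6, 1227.5 and 3241.2 normalized counts in CNO 1, 2 and 3, against 683.1, 1300.7 and 1398.6 in saline 3, 4 and 5. Hspa1b stood at 456.4, 672.6 and 1459.1 and at 369.6, 818.8 and 955.2 in the same libraries. Both genes put the 6 libraries in the same order, from CNO 3, the highest, through saline 5, saline 4, CNO 2 and CNO 1 to saline 3. The groups overlapped in both, with log2 fold changes of 0.55 ± 0.65 for Hspa1a (limma adjusted p = 0.752) and 0.21 ± 0.76 for Hspa1b (adjusted p = 0.925). With total-read scaling these were -0.15 and -0.49.

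Hsph1 encodes HSP110, a nucleotide exchange factor of HSP70 (chromosome 5, 149614287 to 149636376). It stood at 228.2, 805.7 and 1069.1 in CNO 1, 2 and 3, against 357.1, 529.1 and 1128.3 in saline 3, 4 and 5. CNO 1 was the lowest library and saline 5 the highest. The log2 fold change of -0.04 ± 0.86 (95% interval -1.92 to 1.84, limma adjusted p = 0.991) covered changes of several fold in either direction, and it was 0.63 ± 0.68 without CNO 1.

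The co-chaperones Dnajb1 and Bag3 varied widely among the CNO libraries and much less among the saline libraries. Dnajb1, the J-domain partner of inducible HSP70 (chromosome 8, 83608193 to 83612653), stood at 8.45, 744.3 and 323.1 in CNO 1, 2 and 3, against 413.8, 698 and 613 in saline 3, 4 and 5. The CNO 1 value rests on 2 reads (exact 95% Poisson interval 1.02 to 30.5 normalized counts, counting error only). CNO 1 and CNO 3 were below every saline library and CNO 2 above them. The log2 fold change was -2.10 ± 1.48 (limma adjusted p = 0.638), and -0.19 ± 0.71 without CNO 1.

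Bag3, a BAG protein that links HSP70 to autophagy of damaged proteins (chromosome 7, 128523616 to 128546981), had its extreme in CNO 1 on the other side. It stood at 3875.2 in CNO 1, from 917 reads, at 59.9 and 78.6 in CNO 2 and CNO 3, from 81 reads each, and at 561.8, 545.9 and 500.8 in saline 3, 4 and 5. The highest saline library was 1.12 times the lowest, against 64.7 times in CNO. CNO 1 lay above every saline library, and CNO 2 and CNO 3 below them. The means gave a ratio of 2.5 with CNO 1 and 0.129 without it. The log2 fold change was -1.01 ± 1.41 (limma adjusted p = 0.786), -2.95 ± 0.90 without CNO 1 (adjusted p = 0.342) and 0.05 without CNO 2.

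Hspd1 and Hspe1 form the mitochondrial chaperonin, and the windows of Hspe1 and of 1 of the 2 Hspd1 start sites overlap as shown above. Hspd1 stood at 3461.1, 1767.6 and 2273 in CNO 1, 2 and 3, against 1646.3, 1669.7 and 2118.8 in saline 3, 4 and 5. Hspe1 stood at 0, 447.6 and 828.5 in CNO against 259.1, 362.6 and 488.2 in saline. CNO 1 was therefore the highest library for Hspd1, with 819 reads, and the lowest for Hspe1, with 0 reads, where a count of 0 allows up to 12.7 normalized counts (3 reads, the floor used here) and the exact 95% Poisson interval reaches 15.6. In the other 5 libraries the 2 genes put CNO 3 first, then saline 5, CNO 2, saline 4 and saline 3. Hspa8 put these 5 libraries in the same order, so the order is not particular to the pair. Log2 fold changes were 0.42 ± 0.50 for Hspd1 (limma adjusted p = 0.756) and -2.32 ± 2.17 for Hspe1 (adjusted p = 0.694), and without CNO 1 they were 0.16 ± 0.47 and 0.77 ± 0.74. The annotated exons of the 2 genes overlap by 112 bases on opposite strands, and without known strand handling reads there cannot be told apart.

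Values at 0, as for Hspe1, and far above the other libraries, as for Bag3, were more frequent in CNO 1 than in the saline libraries. Of the 4518 tested genes whose mean over the other 5 libraries was 200 to 1000 normalized counts, 18.0% were at 0 in CNO 1 and 1.95% were above 5 times every other library. The same shares were 0.206% to 0.415% and 0% to 0.023% in the saline libraries, 1.44% and 0.138% in CNO 2, and 4.31% and 1.14% in CNO 3. The SD of log2 values within CNO was 3.35 for both Dnajb1 and Bag3 and 5.36 for Hspe1, against a median of 1.74 for genes with a mean of 200 to 1500. Among members of that level it was lower for Hspa1a (0.91), Hspa1b (0.85) and Hsph1 (1.18). It was 0.14 for Hsp90ab1, 0.27 for Hspa8 and 0.93 for Hsp90aa1, against 0.67 for genes with a mean of at least 5000. For Hspd1 it was 0.49, against 0.88 for genes with a mean of 1500 to 5000. In saline all 10 members lay between 0.09 (Bag3) and 0.84 (Hsph1).

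**Figure D2:**
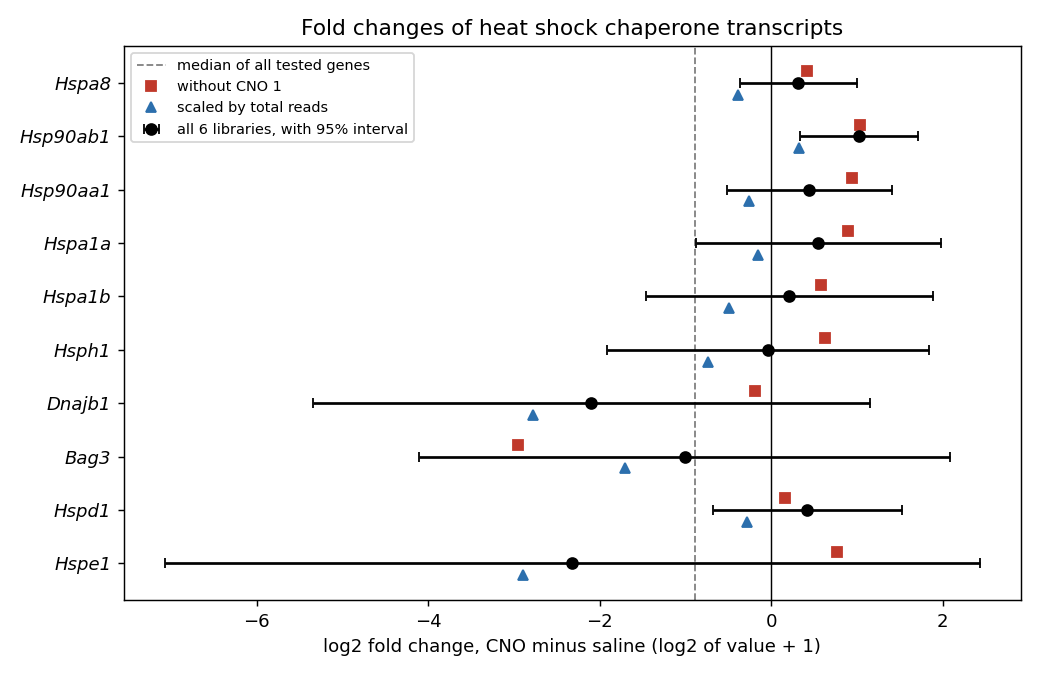
Log2 fold change of each member, CNO minus saline, with all 6 libraries and its 95% interval (black), without CNO 1 (red) and scaled by total reads (blue); the dashed line is the median of all tested genes, -0.89. The interval of Hsp90ab1 lies above 0, those of the other 9 members include 0, and leaving out CNO 1 moves Bag3 and Hspe1 in opposite directions.

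Ratios between members within a library depend on the size factor only through the pseudocount of 1, so 4 of them were compared (exact permutation tests, 2-sided, with 0.1 the smallest possible p). The ratio of Hsp90aa1 to Hsp90ab1, inducible over constitutive HSP90, was 0.512, 1.19 and 1.60 in CNO 1, 2 and 3 and 1.55, 1.28 and 1.64 in saline 3, 4 and 5. Its log2 mean was -0.01 ± 0.85 in CNO and 0.57 ± 0.18 in saline (SD, n = 3 each, exact permutation p = 0.3, adjusted p = 0.6 over 4 ratios), a difference of -0.58 that was -0.10 without CNO 1. The inducible HSP70 pair over Hspa8 gave 0.117, 0.141 and 0.266 in CNO and 0.103, 0.196 and 0.170 in saline (exact permutation p = 0.9, adjusted p = 1). The ratio of Dnajb1 to Hspa8 was 0.000687, 0.0551 and 0.0183 in CNO and 0.0405, 0.0644 and 0.0443 in saline, a log2 difference of -2.41 (exact permutation p = 0.3, adjusted p = 0.6), and -0.62 without CNO 1.

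The ratio of Hspe1 to Hspd1 was 0, 0.253 and 0.364 in CNO 1, 2 and 3 and 0.157, 0.217 and 0.230 in saline 3, 4 and 5. CNO 2 and CNO 3 lay above every saline library and CNO 1 below them. The log2 difference between groups was -2.74 (exact permutation p = 1, adjusted p = 1) and turned to 0.61 without CNO 1. Its size depended on the pseudocount, with -3.07 at 0.5 and -1.75 at 8. The limma fold change of Hspe1 was -2.65 and -1.34 with the same pseudocounts. Ratios of all 4 pairs overlapped between groups, and CNO 1 was the lowest library in 3 of them.

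**Figure D3:**
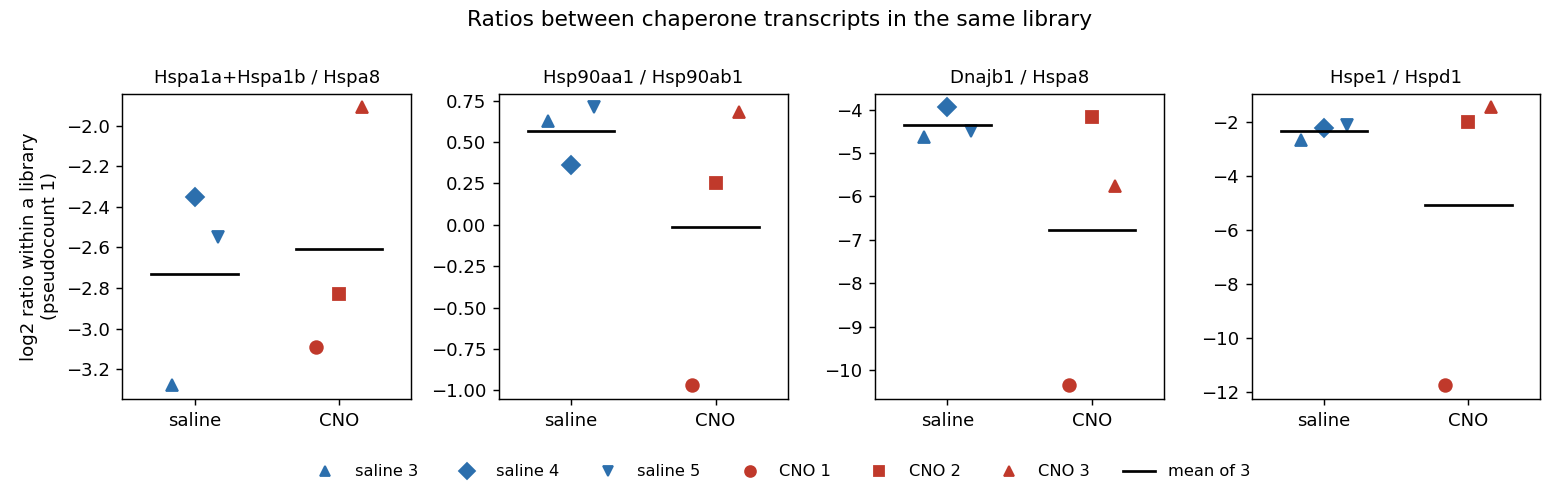
Log2 ratio of 4 pairs of chaperone transcripts within each library, with 1 added to each value; each symbol is 1 library and each line the mean of 3. Groups overlap in all 4 pairs, and CNO 1 is the lowest library in all but the first.

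As a share of all reads the 10 members together took 0.277%, 0.368% and 0.451% in CNO 1, 2 and 3 and 0.320%, 0.373% and 0.483% in saline 3, 4 and 5, with overlap. Hspa1a, Hspa1b, Hsph1, Dnajb1 and Bag3 together took 0.0336%, 0.0247% and 0.0372% in CNO and 0.0242%, 0.0405% and 0.0479% in saline. CNO 3 held the highest normalized count of 6 members and saline 3 the lowest of 5. The genes whose profile over the 6 libraries was nearest to the mean profile of the members, by root mean square difference of centred log2 values among 8636 genes, were Klf6 (0.146), Ptpn12 (0.150), Srpk2 (0.181), Adipor2 (0.193), Tyrobp (0.193) and Pds5a (0.198). The members themselves stood at 0.365 (Hsph1) to 2.81 (Hspe1) from that mean, so it describes no member closely.

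Other genes of the chaperone system were taken from lists by role. Of their 109 tested genes, each counted once, 0 passed in limma, 41 had log2 fold changes above 0 and 68 below, with a median of -0.62. All CNO libraries lay above all saline libraries for 10 of them (4.57% of all tested genes did so) and below for 14 (12.5% of all tested genes). The 3 tested heat shock factors and regulators were all below 0 (0 of 3 passed, median -0.75), where 31.7% of all tested genes were above 0. Hsf1 (-0.24), Hsf2 (-0.86) and Hsbp1 (-0.75) were each above the median of -0.89 over all tested genes. Without CNO 1 they were -0.11, -0.01 and 1.14. Hsf1, the main inducer of the heat shock response, averaged 129.8 ± 39.7 normalized counts after CNO and 218.6 ± 200.3 after saline (log2 fold change -0.24 ± 1.35). Hsf1 turned sign with quantile scaling (0.62).

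Other known targets of HSF1 had a median of 0.27, with 9 of 14 above 0 and 0 passing. Among them Cryab, the small heat shock protein alpha B crystallin, stood at 405.7, 3318.4 and 3289.7 in CNO 1, 2 and 3, against 572.6, 429.8 and 566.2 in saline 3, 4 and 5 (log2 fold change 1.66 ± 0.85, limma adjusted p = 0.552). CNO 2 and CNO 3 were above saline and CNO 1 below it. Chordc1, an HSP90 co-chaperone, was below saline in all 3 CNO libraries, with 21.1, 475.7 and 533.6 against 585.1 to 867.6. Its CNO 1 value came from 5 reads. Of 5 tested small heat shock proteins 0 passed and 3 were below 0, and Hspb6 stood at 0, 79.2 and 0 in CNO against 236.4, 455.4 and 248.6 in saline (limma adjusted p = 0.488).

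The other HSP70 and HSP110 genes had a median of -0.68 (3 of 11 above 0, 0 passing). Hspa4, an HSP110-type exchange factor, stood at 2079.2, 2534.9 and 13859.4 in CNO 1, 2 and 3, against 1781.7 to 2060.1 in saline, so its separation upward was narrow in CNO 1 and rested on CNO 3 for its size. The 36 other J-domain proteins had a median of -0.32 (13 above 0, 0 passing), with Dnajc2 at 4.23, 299.7 and 4.85 in CNO and 346.3 to 566.7 in saline. The Dnajc2 values in CNO 1 and CNO 3 came from 1 and 5 reads. The 9 other BAG and exchange factors had a median of -2.0, with 5 of them at 0 reads in CNO 1. In that library 18.0% of tested genes with a mean of 200 to 1000 over the other 5 libraries were at 0. That share leaves out lower genes. Grpel2, an exchange factor of mitochondrial HSP70, averaged 8.55 ± 7.60 in CNO and 182.9 ± 101.9 in saline.

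HSP90 co-chaperones, with the other HSP90 genes, had a median of -1.25 (7 of 19 above 0, 0 passing) but held the members of these lists with the largest values upward. Cdc37, which delivers kinases to HSP90, stood at 862.1, 355.1 and 943 in CNO 1, 2 and 3, against 43.1, 74.4 and 139.4 in saline 3, 4 and 5, without overlap (log2 fold change 3.09 ± 1.07, limma adjusted p = 0.488). Stub1, a ubiquitin ligase that binds HSP70 and HSP90, stood at 562.1, 2.22 and 764.5 in CNO against 0, 0.800 and 0 in saline (limma adjusted p = 0.488). The CNO 2 value came from 3 reads and the saline 4 value, 0.800, from 1 read. DESeq2 called Cdc37 and Stub1 as higher (adjusted p = 0.0253 and 2.63e-05), where limma, limma-voom and edgeR did not. DESeq2 called 69 genes higher and 180 lower in all, and both genes were named for their small p within the list.

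The cytosolic chaperonin TRiC and prefoldin had a median of 0.55, with 9 of 14 above 0 and 0 passing, and its subunits lay on both sides of 0. Cct5 stood at 1398.8, 1613.7 and 1397 in CNO against 566.7 to 710.9 in saline, while Cct8 of the same ring stood at 8.45, 523.8 and 237.7 in CNO against 676.3 to 912.5 in saline. Both were without overlap, in opposite directions (limma adjusted p = 0.550 and 0.543). The Cct8 value in CNO 1 came from 2 reads. Mitochondrial chaperones and proteases had a median of -2.47, with 2 of 12 above 0, 0 passing and 4 at 0 reads in CNO 1. Among those at 0 were Grpel1 and Grpel2, which are also counted with the exchange factors above. Hspa9, the mitochondrial HSP70, averaged 1064.1 ± 309.2 in CNO and 1383.2 ± 594.9 in saline, and Spg7, a protease of the inner membrane, stood at 0, 11.1 and 0 in CNO against 99.1 to 252.1 in saline.

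**Figure D4:**
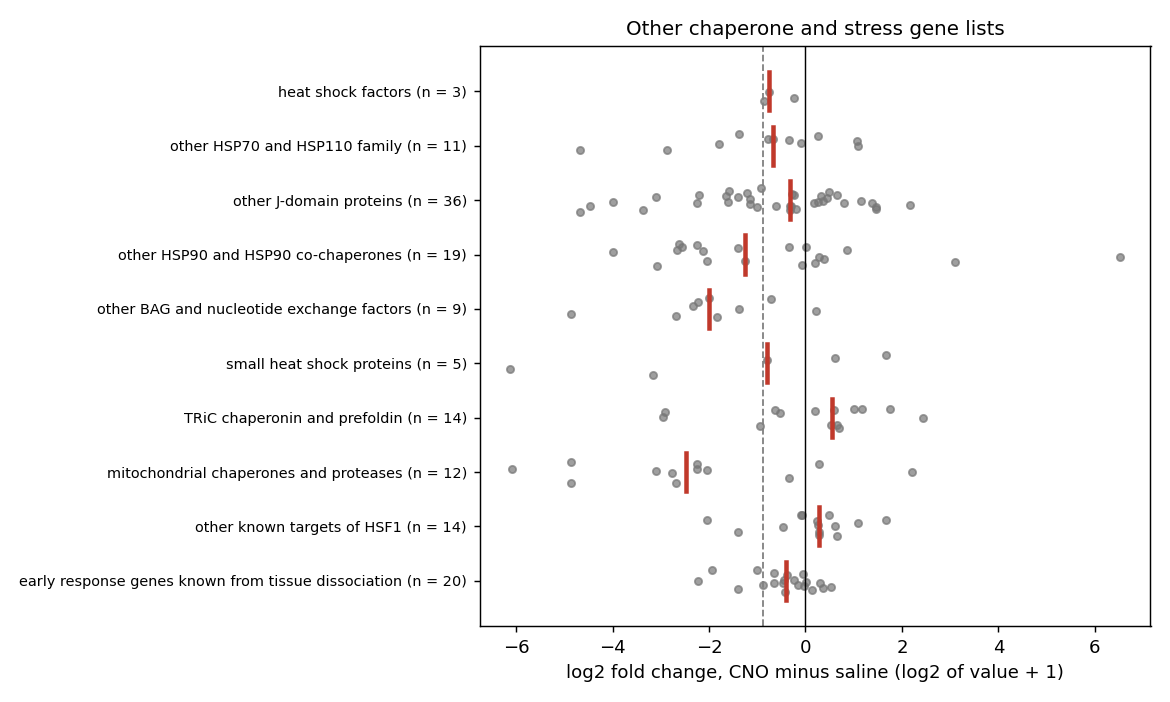
Log2 fold change (CNO minus saline) of each tested gene in 10 lists of other chaperone and stress genes, with list medians in red, 0 as a solid line and the median of all tested genes, -0.89, as a dashed line. Medians run from -2.47 for mitochondrial chaperones and proteases to 0.55 for TRiC and prefoldin; a gene can be in more than 1 list.

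Early response genes that tissue dissociation is known to induce were read beside the chaperones. Of 20 tested, 0 passed and 5 had log2 fold changes above 0, with a median of -0.40. All CNO libraries lay below all saline libraries for 2 of the 20 (12.5% of all tested genes did so) and above for 0. These were Nr4a1 and Egr2. Nr4a1 stood at 448, 466.1 and 714 in CNO against 1846.6 to 2277.3 in saline, and Egr2 at 112.5 to 306.3 and 763.6 to 1036.6 (limma adjusted p = 0.488 for each). The groups overlapped for the other 18, as they did for Hspa1a and Hspa1b. Whether dissociation had a part in either set of values was not tested.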

How the data were processed

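Each deposited value is a normalized signal, a gene's reads over the size factor that the authors applied to its library, as the file's values show. Per the submitters' processing notes the build was mm10 and the tools were STAR 2.5.0a, DESeq2 1.20.0, Trimmomatic 0.4, MultiQC 0.9 and FastQC 0.10.1. Not given in the sources used here are the counter, the annotation and how strand was treated. All values in each library (100%) were whole multiples of 1 step within 1e-06, so whole reads were recovered. The labels mention no molecular identifiers, and intervals and floors cover counting error only. Every column matched a library by name.

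Groups and replicate numbers came from the labels. Tests used limma 3.58.1 in R 4.3.3, after adding 1 to each normalized count and taking log2, for genes with a mean of at least 10, with a variance trend, 2-sided, with Benjamini-Hochberg adjustment over all 13028 genes at 0.05. A fold change is a difference of mean log2 values, and the pseudocount understates changes of low genes. The fit was tested on simulated data with the same dispersion in both groups. In these libraries the median SD of log2 values was 2.15 in CNO and 0.81 in saline, which that simulation does not cover. Intervals are at 95%. The members and lists were chosen with earlier results of these data known. All members are named, with up to 3 genes of smallest p per list and a few always eligible (Hsf1, Hspa9 and Cryab among those used). Near copies are other GENCODE transcripts matched at 95% identity over at least 200 bases (BLAST). Hspa8 had 6 such genes, Hsp90aa1 had 3, Hspd1 had 1 and Hspe1 had 1. Of these copies 0 had a row of their own, so any reads shared with them cannot be seen here. Hspa1a and Hspa1b had 2 such genes each, of which 1 had a row. Hspa1a also overlaps the gene Gm20481 on the opposite strand by 564 exon bases. Hspa8 overlaps Snord14c, Snord14d and Snord14e on the same strand by 86, 86 and 90 exon bases. Of the alternatives, edgeR 4.0.16, DESeq2 1.42.0 and limma-voom used the recovered reads.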

Additional observations from a re-analysis of the deposited data

How the results depend on the processing

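None of the 10 members passed the threshold under any alternative run (DESeq2 gave no adjusted p for Bag3), and 169 of 191 fold changes kept their sign; those of Hsp90ab1 and Dnajb1 kept it in all 19 alternatives each. Scaling by total reads and restriction to genes with a read in every library were chosen after seeing the data. The median log2 fold change of all genes moved from -0.89 to -0.08 with quantile scaling and -1.52 with total-read scaling. It was -0.55 with a pseudocount of 8, -0.57 with a mean of at least 50 and -0.09 for genes with a read in every library. In edgeR it was -0.11 and in DESeq2 0.004. Every sign is therefore relative to the scaling, the genes kept and the method. With quantile scaling the values were -0.42 for Hspa8, -0.42 for Hsp90aa1, -0.19 for Hspd1, -0.01 for Hspa1b and 0.62 for Hsf1. With total-read scaling they were -0.39 for Hspa8, -0.26 for Hsp90aa1, -0.28 for Hspd1, -0.15 for Hspa1a and -0.49 for Hspa1b. Hsph1 was 0.32 with array weights, 0.23 in limma-voom and 0.07 in DESeq2. Bag3 was 1.07 in edgeR and 1.32 in DESeq2, and Hspe1 0.14 and 0.20. For Bag3 and Hspe1 the ratios of mean normalized counts, CNO over saline, were 2.5 and 1.15. The limma values, -1.01 and -2.32, are differences of mean log2 values. The cause of the sign changes was not tested for any gene. Leaving out 1 library at a time gave -0.25 to 0.58 for Hspa1b (-0.25 without CNO 3, -0.21 without saline 3), -0.48 to 0.63 for Hsph1 (0.63 without CNO 1, 0.42 without saline 5), -2.95 to 0.05 for Bag3 (0.05 without CNO 2), -4.08 to 0.77 for Hspe1 (0.77 without CNO 1) and -1.14 to 0.54 for Hsf1 (0.54 without saline 4). The ratio of Hspa1a plus Hspa1b to Hspa8 ran from -0.23 (without CNO 3) to 0.36, with -0.16 without saline 3, and that of Hspe1 to Hspd1 from -4.54 to 0.61 (without CNO 1). The 2 genes past the threshold became 0 with a mean of at least 50, quantile scaling, no variance trend, edgeR, genes with a read in every library, total-read scaling, or any 1 library left out other than CNO 1 (range 0 to 2). They became 11 with array weights, 16 in limma-voom and 249 in DESeq2 (69 higher, 180 lower). No paired analysis was possible because the groups share only replicate number 3. At 4.23 normalized counts per read in CNO 1, low values there are the least precise.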
